A study of Mus musculus with 75 samples.

Results

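The 7 mouse genes that encode the FOS and JUN subunits of the transcription factor AP-1 were followed through all RNA-seq and ATAC-seq data of a study of replicative senescence in cultured mouse skin fibroblasts. The genes are Fos, Fosb, Fosl1 and Fosl2 of the FOS family and Jun, Junb and Jund of the JUN family, and they were chosen by name, as 7 of the 24984 genes in the count files. AP-1 is a dimer of basic leucine zipper proteins. JUN proteins pair with each other or with FOS proteins, whereas FOS proteins do not pair with each other, so that FOS proteins need a JUN partner to bind DNA. The usual binding site reads TGANTCA. Fos, Fosb, Jun and Junb are immediate-early genes, which are switched on within minutes of growth factor or stress signals, while Jund is expressed more steadily in many cells. In skin fibroblasts AP-1 is known for the control of proliferation, matrix-degrading enzymes and inflammatory genes.

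The time series held untreated skin fibroblasts of female C57BL/6 mice, 2 months of age, harvested at 4 points named by passage number (P1, P3, P5, P7). Each passage had 4 RNA-seq libraries, and ATAC-seq was done on 4 samples at P1 and on 3 at every later passage, or 13 in all. In the second group of experiments, C57BL/6 skin fibroblasts carried lentiviral constructs. E2f4_OE cells expressed E2f4 from a doxycycline-induced vector in pre-senescent cells (P4) and were compared with cells that overexpressed EGFP from the vector (E2f4_OE_control), with 2 libraries each. Knockdown used a short hairpin against E2f4 in P3 cells (E2f4_sh1), 2 hairpins against Tead1 (Tead1_sh3 and Tead1_sh4) and 2 against Atf3 in pre-senescent cells (Atf3_sh5 and Atf3_sh6), each with a non-targeting control (E2f4_nt, Tead1_nt and Atf3_nt) and 3 libraries per group. The manipulated cells came from newborn and 2-month-old mice, and which library came from which was not given in the sources used here. For the RNA-seq and ATAC-seq samples, the sources used here do not state whether those of a group came from separate animals or cultures, so p-values measure only the spread between these samples, which may be technical.

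Levels are given as CPM, the counts divided by the library size after TMM scaling and multiplied up to a common total, and all 7 genes passed the filter on low counts in all 5 experiments. Total counts per library lay between 9147324 and 27552949. A gene is said to have risen or fallen where edgeR's quasi-likelihood test gave an adjusted p under 0.05. The targeted gene moved as labelled in the E2f4 and Tead1 experiments, with E2f4 at 41.5 CPM in the control and 1149 CPM under overexpression, at 60.03 and 21.3 CPM in the knockdown, and Tead1 at 541 CPM in the control against 279 and 316 CPM. Atf3 was low already in its control (2.98 CPM) and stood at 1.34 CPM with sh5 (adjusted p = 0.0447) and at 1.72 CPM with sh6 (adjusted p = 0.114). Fibroblast markers were high in every library of the time series, and summed to between 21978 and 23798 CPM at P1 and between 33724 and 36676 CPM at P7. Several other skin cell types had markers that were present at P1 and lower at P7, as 6 of 7 macrophage, 4 of 4 endothelial, 5 of 5 skeletal muscle and 3 of 4 keratinocyte markers tested were. Between P1 and P7, 62.5% of all genes passed the test in either direction and 30.5% rose. The macrophage markers summed to 285 to 434 CPM at P1 and to 35.4 to 50.8 CPM at P7, and the endothelial markers to 126 to 132 CPM and to 6.98 to 9.49 CPM. Schwann and melanocyte markers summed to 33.1 to 41.3 CPM at P1 and 39.8 to 120 CPM at P7 (2 of 4 tested rose and 1 fell), and pericyte markers to 49.6 to 59.9 CPM and 49.4 to 103 CPM (1 of 3 rose). Adipocyte markers were at or near 0. Their part in the passage results below was not tested, and in these bulk libraries fewer cells of a type and less RNA per cell cannot be told apart.

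Libraries also differed in how their levels depended on the base composition of the transcripts, which touches the JUN genes. For each library, genes with an average log2 CPM of at least 3 were taken, each relative to its own mean over the experiment. The median log2 level of the tenth with the most exonic G and C was compared with that of the tenth with the least. This difference lay between -0.14 and -0.01 at P1, between -0.61 and -0.05 at P3, between -0.28 and 0.59 at P5 and between 0.12 and 0.64 at P7. It was 0.52 and 0.87 in the E2f4_OE libraries against -0.94 and -0.46 in their controls, and -1.29 in Atf3_sh5 replicate 3, whereas it stayed within 0.1 of 0 in the E2f4 and Tead1 knockdown libraries. Jund (62.7% G and C in its exons) and Junb (62.4%) lie well above the median of all genes (49.2%), Fosl1 (57.9%), Fosb (56.0%) and Jun (55.6%) lie above it, and Fos and Fosl2 (both 51.9%) lie close to it. A fit with this trend removed, which was added after seeing the data, is therefore given wherever it changed a call.

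The genes themselves are compact, and Jun, Junb and Jund each have 1 exon while the FOS genes have 4. In the RefSeq annotation of GRCm38 (mm10), Fos lies at chr12:85473890-85477274 on the plus strand, Fosb at chr7:19302696-19310118 on the minus strand, Fosl1 at chr19:5447698-5455938 on the plus strand and Fosl2 at chr5:32136472-32157840 on the plus strand. Jun lies at chr4:95049036-95052222 and Junb at chr8:84976909-84978748, both on the minus strand, and Jund at chr8:70697739-70700616 on the plus strand. Of the 1705 exonic bases of Fosl1, 1155 are also exonic in Ccdc85b on the other strand. Because reads were counted without regard to strand, the Fosl1 values are uncertain. GENCODE places the start site of Jund 1210 bases further downstream than RefSeq and that of Fosl2 671 bases further upstream, and the other 5 start sites differ by at most 151 bases.

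Upstream sequences are shown for the 5 members with a start site that has both a sequence of its upstream bases here and an ATAC peak over it. Each line gives the 250 bases before the start site, 5′ to 3′ on the strand of the gene, and the capitals mark matches to the letters TGANTCA, TGACNTCA or TGACG, on either strand. Those of Fos (chr12:85473640-85473889, plus), Fosb (chr7:19310046-19310295, minus), Jun (chr4:95052223-95052472, minus) and Junb (chr8:84978749-84978998, minus) are from the RefSeq promoter table of GRCm38.p6. That of Fosl2 (chr5:32135551-32135800, plus) was read from the same genome before the GENCODE start site, which is the one under an ATAC peak.
Fos: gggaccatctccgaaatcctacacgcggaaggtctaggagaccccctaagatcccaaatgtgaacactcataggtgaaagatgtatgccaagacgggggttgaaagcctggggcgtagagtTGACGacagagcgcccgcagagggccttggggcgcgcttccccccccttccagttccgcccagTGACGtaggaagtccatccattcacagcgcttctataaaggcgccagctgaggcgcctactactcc
Fosb: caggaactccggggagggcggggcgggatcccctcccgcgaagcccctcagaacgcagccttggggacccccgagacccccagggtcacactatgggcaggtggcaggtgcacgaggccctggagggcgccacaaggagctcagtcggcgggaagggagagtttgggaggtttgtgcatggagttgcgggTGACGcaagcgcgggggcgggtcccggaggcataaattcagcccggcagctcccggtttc
Fosl2: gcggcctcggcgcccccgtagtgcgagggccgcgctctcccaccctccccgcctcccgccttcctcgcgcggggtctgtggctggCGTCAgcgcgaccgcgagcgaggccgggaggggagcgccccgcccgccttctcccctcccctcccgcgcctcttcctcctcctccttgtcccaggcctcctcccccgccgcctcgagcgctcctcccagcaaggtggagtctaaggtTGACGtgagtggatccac
Jun: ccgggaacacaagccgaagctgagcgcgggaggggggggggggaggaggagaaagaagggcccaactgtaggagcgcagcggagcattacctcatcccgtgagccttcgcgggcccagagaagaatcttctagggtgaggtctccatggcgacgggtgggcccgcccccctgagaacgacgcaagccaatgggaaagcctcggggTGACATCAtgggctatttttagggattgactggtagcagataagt
Junb: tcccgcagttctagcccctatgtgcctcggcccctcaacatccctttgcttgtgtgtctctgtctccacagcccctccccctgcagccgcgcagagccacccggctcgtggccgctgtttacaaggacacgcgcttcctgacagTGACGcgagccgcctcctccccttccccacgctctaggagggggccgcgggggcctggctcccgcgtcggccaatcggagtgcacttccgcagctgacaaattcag
The Fos sequence holds TGACG 129 and 66 bases upstream of the start site and a TATA box (TATAAA) 33 bases upstream. In Fosb, TGACG lies 60 bases upstream. Fosl2 holds it on the minus strand 165 bases upstream and on the plus strand 18 bases upstream, and in Junb it lies 106 bases upstream. Jun holds TGACATCA, a match to TGACNTCA, 45 bases upstream. No TGANTCA is in these 5 windows. The RefSeq windows of Fosl2 and Jund, which no peak covered at the start site, hold none of these 4 letter strings. For Jund the bases before the GENCODE start site, which a peak covered in every ATAC sample, were not read. Whether they hold these strings was therefore not examined. Among 32851 RefSeq promoters, the same 250 bases hold TGACG in 17.8%, TGACNTCA in 7.49%, TGANTCA in 6.75% and TATAAA in 12.4%, searched on both strands. A match is a description of letters and not a site in use.

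Fosl2 and the 3 JUN genes made up most of the AP-1 transcripts at every passage. Levels of different genes were compared per kb of exon with RefSeq lengths. At P1, Fosl2 stood at 48.3 ± 2.38 CPM per kb (SD, n = 4), and all 4 of its libraries lay above those of Jund (40.01 ± 3.10). Junb (39.7 ± 8.31) and Jun (35.9 ± 1.99) followed, and the libraries of Jund, Junb and Jun overlapped. Fosl1 (4.13 ± 0.673) and Fos (4.12 ± 0.429) overlapped with each other and lay far below, and Fosb was lowest at 0.365 ± 0.0668 CPM per kb. At P7 the order was Jund (59.6 ± 11.5), Junb (54.8 ± 13.6), Fosl2 (46.2 ± 3.75), Jun (34.6 ± 3.70), Fos (8.19 ± 1.86), Fosl1 (3.86 ± 1.33) and Fosb (0.440 ± 0.142). Its top 3 genes overlapped in their libraries, as did Fos and Fosl1. Among the FOS genes, Fosl2 held 84.8% ± 1.45 of the summed level per length at P1 and 78.7% ± 4.19 at P7, and the share of Fos was 7.23% ± 0.562 and 14.0% ± 3.37. Within the JUN family the share of Jund was 34.7% ± 3.25 at P1 and 39.99% ± 2.66 at P7, and that of Jun was 31.1% ± 3.11 and 23.6% ± 4.13. Both the shares and the order depend on the lengths used. With the 1668 exonic bases that GENCODE gives Jund in place of 2878, and with the 550 bases of Fosl1 that are free of Ccdc85b, every Jund library at P1 (62.46 to 75.06 CPM per kb) lay above every Fosl2 library (46.19 to 50.62), and Fosl1 (11.58 to 15.94) lay above Fos without overlap. The share of Jund among the JUN genes at P1 was then 47.7%.

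**Figure D1:**
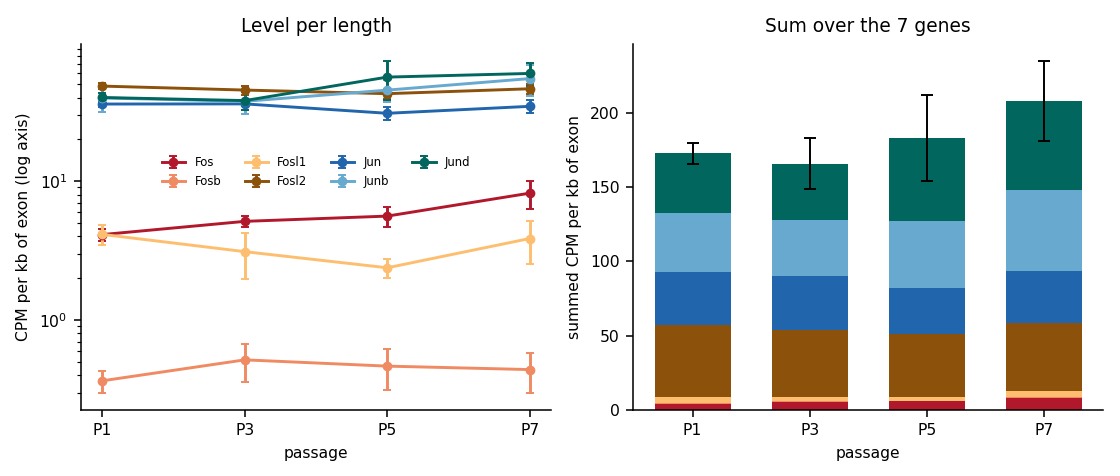
Left, level of each gene in CPM per kb of exon (log axis) at P1, P3, P5 and P7, as mean and SD over 4 libraries. Lengths are those of RefSeq. Right, the same means stacked, with the SD of the sum. Fosl2, Jund, Junb and Jun lie together near the top, Fos and Fosl1 lie well below them and Fosb lowest, and the sum was 172.6 at P1 and 207.7 at P7.

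Between P1 and P7, Fos, Jund and Junb rose, and Fosb, Fosl1, Fosl2 and Jun did not pass the test. Thus 3 of the 7 genes passed, all upward, in a comparison where 62.5% of the 13442 genes tested passed and 30.5% rose. No member changed by more than 2-fold. The median log2 fold change of the 7 genes was 0.26, against -0.01 for all genes.

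Fos, the prototype FOS subunit, had the largest change of the 7. It measured 8.15, 8.29, 10.05 and 8.29 CPM in the P1 libraries and 12.2, 10.2, 10.3 and 10.7 CPM at P3. At P5 it measured 10.9, 11.2, 14.6 and 10.5 CPM, and at P7 20.5, 19.4, 11.7 and 17.5 CPM. Every P7 library lay above every P1 library, as was the case, in 1 direction or the other, for 57.4% of all genes, while the lowest P7 library lay within the range of P3 and P5. The log2 fold change from P1 to P7 was 0.99 ± 0.16 (SE, adjusted p = 2.1e-05), and that from P5 to P7 was 0.55 ± 0.16 (adjusted p = 0.0196). From P1 to P3 it was 0.32 ± 0.16 (adjusted p = 0.136). The rise from P1 to P7 held under every alternative fit, including the fit with the base composition trend removed (0.90), whereas that from P5 to P7 did not pass with only these 2 groups in the fit or without P5 replicate 1, P7 replicate 1 or P7 replicate 2.

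Jund, the more steadily expressed JUN subunit, measured 125, 113, 104 and 118 CPM at P1 and 128, 95.8, 117 and 96.3 CPM at P3. It measured 127, 109, 196 and 214 CPM at P5 and 213, 177, 164 and 133 CPM at P7. The P5 libraries fell into a low and a high pair, and the high pair were those with the base composition differences 0.48 and 0.59. All P7 libraries lay above all P1 libraries, in a comparison where the groups did not overlap for 57.4% of all genes. The log2 fold change was 0.58 ± 0.18 from P1 to P7 (adjusted p = 0.00803) and 0.36 with the trend removed, where it still passed. From P3 to P5 it was 0.56 ± 0.18 (adjusted p = 0.0229), a call that was lost with the trend removed (0.25, adjusted p = 0.077) and without P3 replicate 2, P3 replicate 4, P5 replicate 3 or P5 replicate 4.

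Junb, an immediate-early JUN subunit that is often a weaker activator than JUN, measured 75.9, 69.9, 91.8 and 54.8 CPM at P1 and 121, 122, 89.5 and 70.8 CPM at P7. These groups overlapped. The log2 fold change was 0.46 ± 0.18 (adjusted p = 0.031), and it did not pass with the trend removed (0.25, adjusted p = 0.111) or without P1 replicate 2, P1 replicate 4, P7 replicate 1 or P7 replicate 2. Against P3, where Junb measured 85.2, 62.9, 73.2 and 55.0 CPM, the log2 fold change at P7 was 0.54 ± 0.18 (adjusted p = 0.0167). With the trend removed this was 0.17 (adjusted p = 0.318), and the call was also lost without P3 replicate 4, P7 replicate 1 or P7 replicate 2. Jun, the prototype JUN subunit, stayed between 86.5 and 123 CPM in all 16 libraries. It was lowest at P5, with 95.7, 86.5, 99.6 and 111 CPM against 111, 116, 107 and 122 CPM at P1 (log2 fold change -0.22 ± 0.09, adjusted p = 0.0441), and these groups overlapped. That call was lost without any of 6 single libraries and with no filter on low counts. With the composition trend removed, Jun was lower at P5 than at P3 (-0.38) and lower at P7 than at P1 (-0.16, adjusted p = 0.0492) and at P3 (-0.23). The call between P3 and P5 was also made with DESeq2 and without P5 replicate 4.

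Fosl1 encodes FRA1, a FOS subunit that lacks the strong activation domain of FOS and is itself an AP-1 target. It measured 6.37, 8.77, 6.56 and 6.50 CPM at P1 and 4.14, 3.60, 4.91 and 3.57 CPM at P5. The groups did not overlap (log2 fold change -0.79 ± 0.25, adjusted p = 0.0128), and the fall passed under every alternative. The share of all genes without overlap between P1 and P5 is not given here, and between P1 and P7 it was 57.4%. At P7 the 4 libraries spread from 4.77 to 9.49 CPM and P7 against P1 gave -0.10 ± 0.25 (adjusted p = 0.744). Fosl2 encodes FRA2 and had the highest CPM of the 7, from 227 to 297 CPM over the 16 libraries, with no passage comparison past the test. Its P7 level against P1 differed by -0.06 ± 0.08 on the log2 scale. Fosb, an immediate-early FOS subunit, had 15 to 36 counts per library (1.04 to 2.63 CPM), and its SE between P1 and P7 was 0.31 on the log2 scale. At this depth even a difference of 0.49 between P1 and P3 did not pass (adjusted p = 0.23).

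Counted over the other passage pairs, none of the 7 genes passed between P1 and P3, where 33.4% of all genes did. Between P1 and P5, 4 passed, with Fos (0.44 ± 0.16, adjusted p = 0.0262) and Jund (0.49 ± 0.18, adjusted p = 0.0262) higher and Fosl1 and Jun lower, against 51.2% of all genes (25.1% higher, 26.1% lower). With the trend removed Fos did not pass here (0.34, adjusted p = 0.0666) and Fosl2 did (-0.28), and without single libraries the call was lost for Fos in 4 cases and for Jund in 4. Between P3 and P5 only Jund passed, upward (28.7% of all genes passed, 13.4% upward), between P5 and P7 only Fos, upward (16.8% and 7.67%), and between P3 and P7 Fos (0.67 ± 0.16), Junb and Jund (0.65 ± 0.18), all upward (Jund by 0.27, still past the test, with the trend removed), against 51.3% of all genes past the test and 24.8% upward. The passages share libraries between these comparisons, so their counts are not independent of each other.

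**Figure D2:**
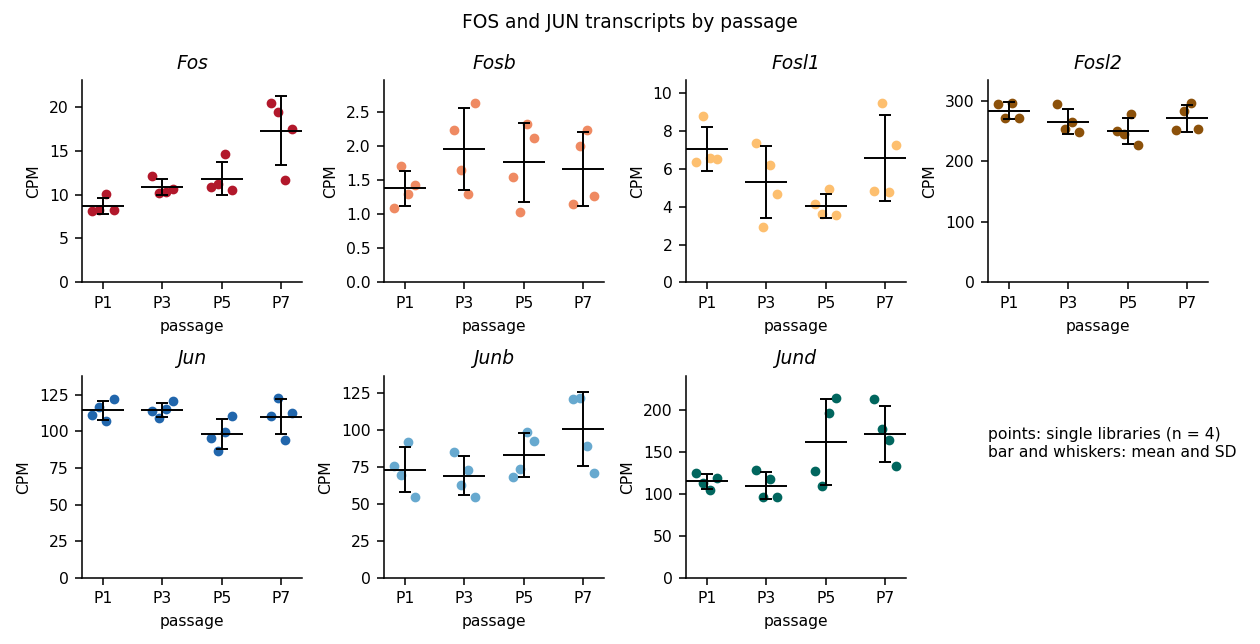
CPM of each gene (linear axis from 0) in the 4 libraries of each passage, with mean and SD. Fos and Jund are higher in every P7 library than in every P1 library, Junb overlaps between them, Fosl1 is lowest at P5, and Jun, Fosl2 and Fosb overlap between P1 and P7.

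Other genes of the pathway were taken from fixed lists. Their counts between P1 and P7 stand against 62.5% of all genes past the test in either direction and 30.5% upward. Among 10 other leucine zipper partners and inhibitors tested, 4 rose and 5 fell. The small MAF genes Mafk (41.6 ± 1.57 to 89.6 ± 7.76 CPM, SD, n = 4) and Maff (61.6 ± 2.06 to 98.7 ± 17.8 CPM) rose, as did the stress-induced repressor Atf3 (7.76 ± 0.284 to 14.8 ± 7.83 CPM). Of 18 MAP kinases, their phosphatases and JUN turnover genes, which set the activity and stability of JUN proteins, 7 rose and 4 fell. Among them the phosphatase Dusp1 rose from 75.1 ± 7.33 to 130 ± 18.2 CPM and the kinase Map3k1 fell from 14.5 ± 1.55 to 6.77 ± 0.673 CPM. Of 6 genes for SRF and its cofactors, which drive Fos transcription, 2 rose and 2 fell.

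Of 18 immediate-early genes outside the AP-1 family, 10 rose and 4 fell from P1 to P7, with a median log2 fold change of 0.39, where 30.5% of all genes rose and 62.5% passed in either direction. Nr4a1, a nuclear receptor, rose from 12.8 ± 0.808 to 103 ± 36.8 CPM, and the matrix protein gene Ccn2 rose by 1.82 ± 0.21 on the log2 scale. Among 17 textbook AP-1 targets, 10 rose and 2 fell between P1 and P7 (median 0.50), and 12 rose and 0 fell between P5 and P7 (median 0.71), where 7.67% of all genes rose. Ptgs2, the inducible prostaglandin synthase, rose from 19.7 ± 5.50 CPM at P1 through 54.0 ± 14.8 CPM at P5 to 256 ± 49.8 CPM at P7. Mmp3, stromelysin-1, went the other way, from 792 ± 202 CPM at P1 to 53.5 ± 9.36 CPM at P7. Many of these targets also respond to other factors, and macrophages or endothelium express several of them.

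Levels of all 3 JUN genes and of Fosl1 and Fosl2 were higher in the E2f4_OE libraries than in their controls. The groups also differed in base composition, and Jun did not pass with that trend removed (log2 0.11). In E2f4_OE against E2f4_OE_control, 6 of the 7 genes passed the test where 57.2% of the 13199 genes tested did (28.9% higher, 28.2% lower), with Fosl1, Fosl2, Jun, Junb and Jund higher and Fos lower. The median log2 fold change was 0.79 for the 7 genes and 0.01 for all genes. Fosl1, Junb and Jund rose by more than 2-fold, as 7.69% of all genes did.

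Fosl1 measured 2.14 and 4.26 CPM in the control libraries and 8.87 and 10.3 CPM with E2f4, a 3.06-fold difference (log2 1.61 ± 0.27, adjusted p = 0.000545). Junb measured 43.9 and 84.5 CPM against 147 and 148 CPM (log2 1.21 ± 0.23, adjusted p = 0.0011), and Jund 63.1 and 111 CPM against 179 and 194 CPM (log2 1.10 ± 0.20, adjusted p = 0.00102). For these 3 genes control replicate 1 lay well below control replicate 2, and both controls lay below both E2f4 libraries. With 2 libraries a group, 81.5% of all genes did not overlap between the groups. Fosl2 rose from 261 and 251 CPM to 428 and 460 CPM (log2 0.79 ± 0.10, adjusted p = 0.000107). Jun rose from 94.6 and 113 CPM to 150 CPM in both libraries (log2 0.53 ± 0.12, adjusted p = 0.00288). Fos fell from 36.5 and 41.3 CPM to 30.1 and 29.2 CPM (log2 -0.39 ± 0.12, adjusted p = 0.02). Fosb measured 2.75 and 3.00 CPM against 2.18 and 2.48 CPM and did not pass.

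The base composition difference moved with these groups, and with it removed the log2 fold changes were 1.10 for Fosl1, 0.48 for Junb, 0.35 for Jund and 0.61 for Fosl2, all still past the test. Jun was then at 0.11 (adjusted p = 0.246), no longer past the test, Fos was at -0.57, and Fosb passed at -0.74. Fos also lost its call without either E2f4_OE library. Among 15 AP-1 targets tested, 6 rose and 5 fell, where 28.9% of all genes rose and 28.2% fell. Ptgs2 fell from 897 ± 15.4 to 338 ± 60.8 CPM (SD, n = 2). Srf, which activates Fos, rose from 76.0 ± 25.4 to 136 ± 0.160 CPM, while Fos itself fell. Immediate-early genes split, with 8 of 18 higher and 4 lower.

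In the E2f4 knockdown, 2 of the 7 genes fell, Jund and Jun, where 7.79% of all genes fell and 17.8% passed in either direction. Jund measured 330, 340 and 319 CPM with the non-targeting hairpin and 251, 241 and 158 CPM with sh1 (log2 -0.60 ± 0.12, adjusted p = 0.00344), a difference that passed under every alternative. Jun measured 109, 107 and 111 CPM against 97.3, 91.5 and 79.3 CPM (log2 -0.29 ± 0.08, adjusted p = 0.021), and it did not pass without E2f4_sh1 replicate 2 or any single control library. The groups of both genes did not overlap, as was so for 35.5% of all genes, and the knockdown libraries hardly differed in base composition. The summed fibroblast markers were lower with sh1 (25474 to 28978 CPM, against 34215 to 35299 CPM), with 3 of 8 lower and 1 higher, and the summed pericyte markers were higher (209 to 249 CPM, against 124 to 133 CPM), with 1 of 3 higher. Their part in the result was not tested. Junb, which had risen with E2f4, measured 87.2, 86.2 and 81.9 CPM against 97.8, 89.2 and 83.6 CPM and did not pass (log2 0.08 ± 0.08). Fosl1 stood at 4.34 ± 1.497 and 4.65 ± 0.815 CPM. Of 18 immediate-early genes, 4 rose and 3 fell, with Nr4a1 from 104 ± 16.03 to 210 ± 16.5 CPM (SD, n = 3).

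Knockdown of Tead1 gave small changes with little spread between libraries. With sh3, 3 of the 7 genes passed against 35.4% of all genes, and with sh4, 2 did against 29.1%. Both hairpins share the Tead1_nt libraries. By the hairpin sequences that the paper lists, their target sites in Tead1 also overlap almost entirely, so the hairpins are not independent of each other. Pericyte markers summed to 206 to 230 CPM in the control, 149 to 164 CPM with sh3 and 158 to 174 CPM with sh4, and their part in the results was not tested. Fosl2 measured 221, 210 and 211 CPM in the control, 256, 274 and 276 CPM with sh3 and 264, 246 and 251 CPM with sh4. The log2 fold change was 0.33 ± 0.04 with sh3 (adjusted p = 2.7e-07) and 0.24 ± 0.04 with sh4 (adjusted p = 3.9e-05). Neither hairpin group overlapped with the control, and the share of all genes without overlap is not given for these comparisons. In the E2f4 knockdown, also with 3 libraries per group, that share was 35.5%. Fewer genes passed the test there (17.8%), so that share does not stand in for the Tead1 comparisons. Jund measured 221, 231 and 225 CPM in the control, 198, 176 and 186 CPM with sh3 and 210, 217 and 193 CPM with sh4. It fell by 0.27 on the log2 scale with sh3 (adjusted p = 2.4e-05) and by 0.13 with sh4 (adjusted p = 0.0385), and the call for sh4 was lost without any of 4 single libraries.

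Junb was the member on which the 2 Tead1 hairpins differed. It measured 97.1, 91.8 and 96.0 CPM in the control, 123, 127 and 116 CPM with sh3 and 106, 100 and 99.9 CPM with sh4. The rise was 0.36 ± 0.05 with sh3 (adjusted p = 4.0e-07), and sh4 gave 0.10 ± 0.05 (adjusted p = 0.114). Compared directly, sh4 was lower than sh3 by 0.26 ± 0.05 on the log2 scale (adjusted p = 0.000608), in a comparison that 7.37% of genes passed, 4.03% downward. Jund was higher with sh4 than with sh3 by 0.15 on the log2 scale, which did not pass (adjusted p = 0.0545) but did with DESeq2, with no filter on low counts or with only these 2 groups. Fosl1 measured 8.64 ± 1.19 CPM in the control, 10.5 ± 1.12 CPM with sh3 (adjusted p = 0.0724) and 10.7 ± 0.951 CPM with sh4 (adjusted p = 0.0527). Jun, Fos and Fosb differed from the control by at most 0.10 on the log2 scale with either hairpin. Of 16 AP-1 targets, 8 rose and 2 fell with sh3, where 35.4% of all genes passed in either direction, and the count with sh4 is not given here. With sh3, Ccnd1, cyclin D1, rose from 269 ± 2.69 to 510 ± 24.5 CPM, while Ptgs2 fell from 265 ± 10.6 to 148 ± 3.71 CPM.

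The 2 Atf3 hairpins gave different values for 4 of the 7 genes. Atf3 encodes a leucine zipper repressor that can pair with JUN proteins. Against Atf3_nt, which both hairpins share, 0 of the 7 genes passed with sh5 (edgeR, 35.9% of all genes passed, and 4 members had an unadjusted p under 0.05) and 1, upward, with sh6 (49.8% of all genes passed, 23.8% upward). Directly compared, sh6 was higher than sh5 for Fosl1, Fosl2, Jun and Junb, against 52.6% of all genes past the test and 25.9% higher.

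The fibroblast markers summed to 37946 to 39583 CPM in the Atf3 control, 24390 to 36452 CPM with sh5 and 15837 to 16786 CPM with sh6, where 6 of 8 fell. The 4 pericyte markers summed to 85.3 to 95.0 CPM, 37.0 to 55.5 CPM and 199 to 208 CPM, and with sh6 1 of them rose and 2 fell. The part of these shifts in the results of the hairpins was not tested.

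Atf3_sh5 replicate 3 stood apart from the other libraries of its group. Jund measured 186, 204 and 230 CPM in the control, 124, 147 and 35.4 CPM with sh5 and 147, 141 and 120 CPM with sh6. Junb measured 41.3, 52.2 and 55.5 CPM in the control, 32.3, 38.7 and 8.85 CPM with sh5 and 81.4, 67.2 and 51.4 CPM with sh6. Fosl1 measured 2.97, 3.29 and 3.37 CPM in the control, 1.25, 2.51 and 0 CPM with sh5, and 7.21, 7.79 and 5.98 CPM with sh6. The count of 0 allows up to 3 counts, or 0.169 CPM, and this is the library with the strongest base composition difference. Against the control, Jund gave -1.02 ± 0.38 on the log2 scale with sh5 (adjusted p = 0.0581) and -0.60 ± 0.38 with sh6 (adjusted p = 0.207). All hairpin libraries lay below all control libraries, and the share of all genes without overlap is not given for these comparisons. It was 35.5% in the E2f4 knockdown, also with 3 libraries per group. Fewer genes passed the test there (17.8%, against 35.9% with sh5 and 49.8% with sh6), so that share does not stand in for the Atf3 comparisons. Without Atf3_sh5 replicate 3, 3 of the 7 genes passed downward with sh5, namely Jund (-0.58, adjusted p = 0.000307), Junb (-0.45, adjusted p = 0.0321) and Fosl1 (-0.74, adjusted p = 0.0351). Without Atf3_sh5 replicate 2, 5 passed downward (these 3, Fosl2 and Jun), and without replicate 1 none did. The shares of all genes past the test in these fits are not given here.

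Jun measured 89.3, 94.6 and 96.2 CPM in the Atf3 control, 82.3, 84.4 and 59.9 CPM with sh5 and 133, 122 and 111 CPM with sh6. Jun was the member that passed for sh6 (log2 0.39 ± 0.12, adjusted p = 0.0246), and the call was lost without Atf3_sh6 replicate 1 or 2 or any single control library. Between the hairpins, sh6 was higher than sh5 by 0.69 ± 0.12 for Jun (adjusted p = 0.00105), by 2.45 ± 0.61 for Fosl1 (adjusted p = 0.00665), by 1.32 ± 0.40 for Junb (adjusted p = 0.0182) and by 0.37 ± 0.12 for Fosl2 (adjusted p = 0.0283). The Fosl2 difference did not pass with the composition trend removed (0.24), with only the 2 groups in the fit or without any single Atf3_sh6 library, and that of Junb did not pass without Atf3_sh6 replicate 1. For sh6 against the control, 4 passed with the trend removed (Fosb, Fosl1, Jun and Junb, all higher), where 7669 of 13345 genes did. Without that removal but with only sh6 and control libraries in the fit, 5 of the 7 genes passed in place of 1. These were Fosb, Fosl1, Jun and Junb upward and Jund downward, and the share of all genes in that fit is not given here. Of 17 AP-1 targets, 11 rose and 2 fell with sh6 (median 1.36), where 23.8% of all genes rose and 49.8% passed, and Ptgs2 went from 76.4 ± 4.58 to 722 ± 20.8 CPM with sh6 and to 223 ± 24.9 CPM with sh5.

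**Figure D3:**
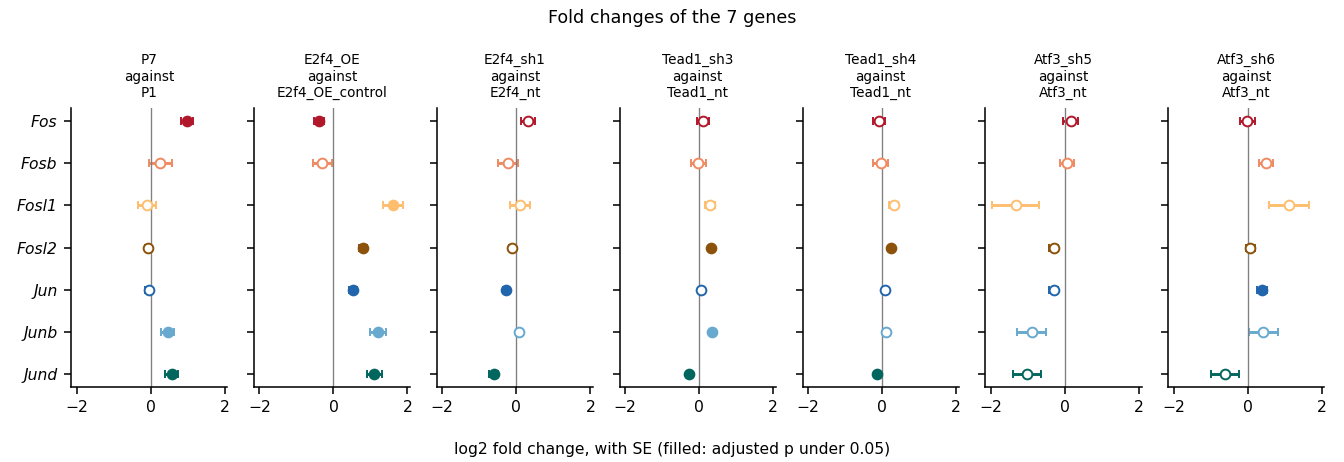
Log2 fold change with SE of the 7 genes in P7 against P1 and in 6 comparisons of manipulated cells with their controls, with filled points where the adjusted p was under 0.05. E2f4_OE holds the largest filled value (Fosl1), Jund is below 0 with a filled point in E2f4_sh1 and both Tead1 hairpins, and Atf3_sh5 has no filled point.

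**Figure D4:**
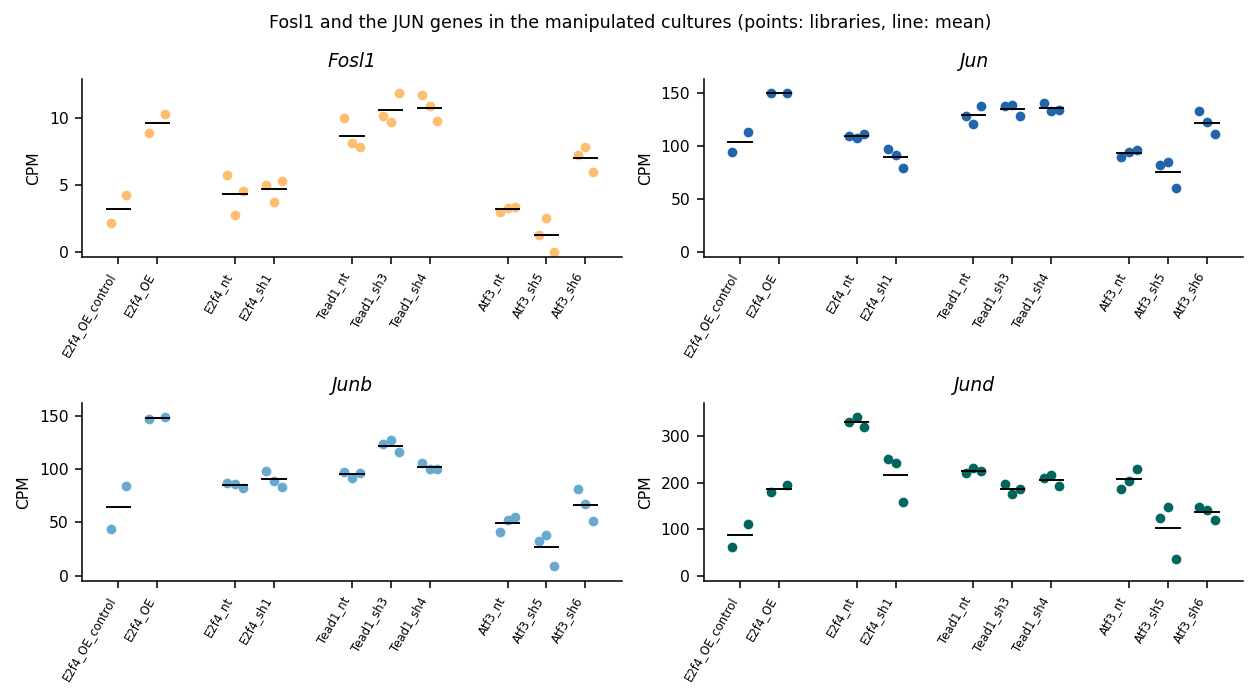
CPM of Fosl1, Jun, Junb and Jund in each library of the manipulated cultures, with the mean as a line. In Atf3_sh5 the third library lies below the other libraries of its group for all 4 genes, and E2f4_OE_control replicate 1 lies below replicate 2.

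Open chromatin was present near the start site of all 7 genes in all 13 ATAC samples. Peak lists hold no read counts, so that depth is unknown, and the strength of a promoter was taken as the percentile, by -log10 p within its sample, of the strongest peak that overlapped the 1000 bases on either side of the RefSeq start site. Samples had between 142384 and 231558 peaks, with 168982 to 186562 at P1 and 200376 to 231558 at P7. A percentile within a sample depends on how many peaks were called in it. The part of peak number in the differences below was not tested. At P1 the mean percentile was highest at Fosl2 (96.3 ± 1.06, SD, n = 4), followed by Jun (92.3 ± 1.90), Fos (92.1 ± 0.741), Junb (91.4 ± 1.76), Jund (87.8 ± 1.08), Fosl1 (78.7 ± 2.40) and Fosb (71.4 ± 5.59). Jun, Fos and Junb overlapped in their samples.

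Jund was the single member that passed between P1 and P7, where 8% of 17010 promoters rose and 26.4% fell at the same threshold. It stood at the percentiles 86.5, 88.4, 87.3 and 88.9 in the P1 samples and 93.1, 94.2 and 95.2 at P7. These groups did not overlap, and the difference of 6.39 had a two-sided exact permutation p of 0.0286, the smallest that 4 against 3 samples can give. The P3 samples (93.1, 84.3 and 93.1) and P5 samples (91.6, 86.1 and 93.6) lay on both sides of the P1 range. Fold enrichment at the same peak was 5.20 to 5.82 at P1 and 7.55 to 8.88 at P7.

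Jun stood at 90.0, 94.5, 91.8 and 92.9 at P1 and at 96.6, 95.5 and 97.4 at P7, without overlap (difference 4.15, exact permutation p = 0.0571), and its fold enrichment was 4.22 to 5.20 against 7.54 to 7.96. Fosl2 (difference 1.93) and Fosb (difference 8.50) also did not overlap between P1 and P7, with an exact permutation p of 0.0571 each, in a comparison where the groups did not overlap at 43.5% of promoters. Junb (0.92), Fos (-2.17) and Fosl1 (-1.24) overlapped. Ranked by fold enrichment in place of -log10 p, Jun and Jund were higher and Fos and Fosl1 lower at P7, each with an exact permutation p of 0.0286. The share of all promoters that passed under this ranking is not given here. At Fosl1 the strongest peak changed, with its summit 1139 to 1153 bases after the start site at P1 and 156 bases after it in P7 replicate 1. Fold enrichment of the peak over the Fosl1 start site was 3.16 to 4.03 at P1 and 3.82 to 4.72 at P7. The bases of the Fos window covered by peaks also fell, from a mean of 1343 at P1 to 1116 at P7 (exact permutation p = 0.0286). Between P1 and P3 and between P1 and P5, 0 of the 7 promoters passed the exact permutation test, where 2.52% and 6.57% of promoters were higher and 18.5% and 18.9% lower.

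Position of the peaks separated the 2 annotations of Jund and Fosl2. No sample had a peak over the RefSeq start site of either gene, and all 13 had a peak over the GENCODE start site, whereas the other 5 genes had a peak over the RefSeq start in all 13 samples. Among 17232 genes with a peak in the window, 69.0% had a peak over the RefSeq start in every sample and 12.3% in none. The window of Jund therefore met the edge of its peak, and with 500 bases on either side it held no Jund peak. With GENCODE start sites, an alternative added after seeing the data, the Jund difference was unchanged at 6.39. At Junb the strongest peak lay upstream, with its summit at -1406 to -1365 bases from the GENCODE start site in all 13 samples, and a weaker peak covered the start.

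**Figure D5:**
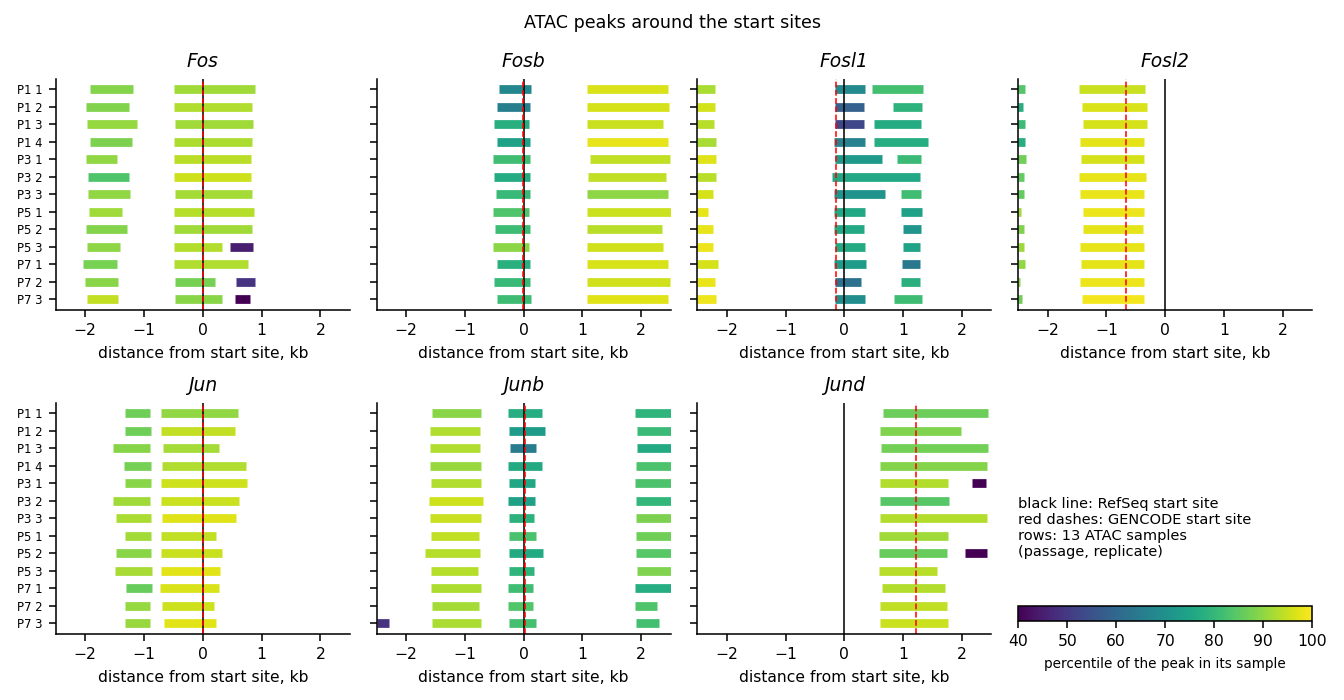
ATAC peaks from 2.5 kb before to 2.5 kb after the RefSeq start site (black line) of each gene, in rows for the 13 samples and coloured by the percentile of the peak in its sample. Peaks of Jund and Fosl2 cover the GENCODE start site (red dashes) and not the RefSeq one, and the Jund peaks are brighter at P7 than at P1.

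Within 50000 bases of the 7 start sites, 15 consensus peaks of P7, those found in at least 2 of its 3 samples, overlapped no peak of any P1 sample, and 1 consensus peak of P1 was lost in the same sense by P7. Gained peaks numbered 3 each at Fosl2 and Junb, 2 each at Fos, Fosb, Jun and Jund, and 1 at Fosl1, which also held the lost peak. Among all consensus peaks, 16.3% of those at P7 were gained and 4.18% of those at P1 were lost, while near single members the gained share ran from 4% of 25 peaks (Fosl1) to 18.8% of 16 peaks (Fosl2). Of the 15 gained peaks, 3 hold TGANTCA, against 31.5% of all 33287 gained peaks, which had a mean length of 359 bases. The shortest peak of these 3, at chr5:32104137-32104400 centred at -32204 bases from the Fosl2 start site, is shown with its match in capitals, on the plus strand of mm10.
Fosl2 gained peak: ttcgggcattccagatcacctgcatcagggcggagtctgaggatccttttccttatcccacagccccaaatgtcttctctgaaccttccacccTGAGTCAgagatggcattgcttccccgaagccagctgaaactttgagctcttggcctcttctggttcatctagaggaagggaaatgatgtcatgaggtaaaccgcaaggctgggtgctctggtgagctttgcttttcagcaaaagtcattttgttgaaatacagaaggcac

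Across the 16 libraries of the time series, the log2 CPM of Junb and Jund rose and fell together (Pearson r = 0.78), and so did those of Fos with Junb (0.67) and Jund (0.60), while Jun was close to 0 with all 3. Among 9582 genes, the log2 CPM most like that of Fos belonged to Gpx8 (r = 0.93), 3110040N11Rik (0.92) and Selenos (0.91), and the most like Jund to Emc10 (0.97), Pebp1 (0.96) and Ltbr (0.96). The closest to Junb were P4hb (0.94), Slc39a1 (0.91) and Slc39a7 (0.90), to Jun Bok (0.85), to Fosl1 Ppp1r10 (0.86), to Fosl2 Wipf1 (0.83) and to Fosb B3galnt2 (0.76). These libraries share passage, depth and the base composition trend, so the values are descriptions without a test.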

How the data were processed

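Gene counts were deposited per library. The authors used Trimmomatic 0.39 for trimming, HISAT2 2.2.1 for alignment (genome mm10) and HTSeq 0.12.4 for counting without strand (annotation not given in the sources used here). HTSeq's summary lines, 7.50 to 16.8% of counts in the manipulation files and 0 in the time series, were left out. Members and lists were chosen with earlier results of these data known. Each experiment was fitted with edgeR 4.0.16 (quasi-likelihood test, TMM, filterByExpr, R 4.3.3), all its groups together, with Benjamini-Hochberg adjustment over all genes tested. Past the test means an adjusted p under 0.05. Alternatives were other size factors, DESeq2 1.42.0, other filters, only the groups compared, a replicate block, each library left out and, added after seeing the data, the GC trend removed. Genes outside the family were named as at most 4 per list and comparison past the test, by fold change, with an average log2 CPM of at least 3. Members were correlated with every gene in the time series on log2 CPM. Fits were tested on simulated data.

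ATAC peaks were called by the authors per sample with MACS2 after Bowtie2 2.3.5.1, with no pooling. The deposited values are fold enrichment, a ratio over local background, and -log10 p and -log10 q per peak. Percentiles of -log10 p within each sample were compared by exact two-sided permutation tests, and 3 against 3 samples cannot go below p = 0.1, so those pairs have no test. These p-values are not adjusted over the 7 members. Consensus peaks were in at least 60% of a passage's samples. Methylation samples were not analysed here.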

Additional observations from a re-analysis of the deposited data

Results flagged for a closer look

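In 3 of 35 groups of 4 libraries, 1 library stood apart from the others of its passage by Dixon's criterion, which chance meets in about 1 in 20 groups. Fos was at 10.05 CPM in P1 replicate 3, against 8.15 to 8.29 CPM in the other P1 libraries. It was at 14.6 CPM in P5 replicate 3, where the others lay between 10.5 and 11.2 CPM. Fosl1 was at 8.767 CPM in P1 replicate 2, and the other P1 libraries lay between 6.37 and 6.56 CPM.

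Hairpins against the same gene differed from each other in the direct test for 5 results. Junb was lower with Tead1_sh4 than with Tead1_sh3 (log2 fold change -0.257, edgeR adjusted p = 0.000608). Atf3_sh6 was higher than Atf3_sh5 for Fosl1 (2.45, edgeR adjusted p = 0.00665), Fosl2 (0.366, edgeR adjusted p = 0.0283), Jun (0.691, edgeR adjusted p = 0.00105) and Junb (1.32, edgeR adjusted p = 0.0182). In all 4 of these genes the third Atf3_sh5 library was the lowest of its group.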

How the results depend on the processing

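The number of members past the test moved by more than 1.5 times under these alternatives. With DESeq2 it was 2 for P5 against P3 (1 in the fit reported), 2 for P7 against P5 (1) and 2 for Tead1_sh4 against Tead1_sh3 (1), where no filter on low counts and a fit of only the 2 groups also gave 2. With only the 2 groups, P7 against P5 gave 0. For Atf3_sh5 (0), no filter gave 1. For Atf3_sh6 against its control (1), DESeq2 size factors in edgeR gave 2, a minimum of 10 counts 2, only the 2 groups 5 and the GC trend removed 4. The causes were not tested. Leaving out each library in turn gave 0 to 0 members for P3 against P1, 1 to 3 for P5 against P1, 2 to 3 for P7 against P1, 0 to 1 for P5 against P3, 0 to 2 for P7 against P5 and 2 to 3 for P7 against P3. It gave 5 to 6 for E2f4 overexpression, where the lone library left in a group is assumed to vary like the other group, 1 to 2 for its knockdown, 3 to 4 for Tead1_sh3, 1 to 3 for Tead1_sh4, 1 to 2 between them, 0 to 5 for Atf3_sh5, 0 to 2 for Atf3_sh6 and 2 to 4 between those. By the rule used, same-numbered libraries paired by their deviations in none of the comparisons. A fit with the replicate number as a block gave 1 member (Jund) for Atf3_sh5 against its control in place of 0, with the other counts within 1.5 times.

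For the promoters, P3 against P1 (0) gave 1 with 2000 bases on either side, 1 by fold enrichment and 1 with GENCODE starts. P5 against P1 (0) gave 2 by fold enrichment and 1 by covered bases. P7 against P1 (1) gave 0 with 500 bases on either side, where no Jund peak is met, and 4 by fold enrichment. Leaving out a sample there cannot reach a p under 0.05. The P3 against P1 difference in percentile reversed for Fosb with 2000 bases (-3.575, from 8.13) and for Fosl1 with GENCODE starts (-5.569, from 0.71). Of all single-member values, 1481 counted as unchanged, 58 lost the call, 48 gained it, 9 moved and 2 reversed. Unchanged meant the same side of the threshold, and the same direction only where the reported result had passed. With an ATAC sample left out, it meant a shift smaller than the SD at P1. Low counts limit Fosb and Fosl1, and peak lists without read counts limit the promoter values.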
